A study of Drosophila melanogaster with 12 samples.

Results

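The cytochrome P450 genes of the fruit fly were followed in 4 groups of arrays, as the genes whose present symbol begins with Cyp and a digit and which have a probe set of their own. This rule matched 83 of the 11982 genes named on the array. By their family numbers 81 of these are cytochrome P450 genes, and they are the members described here. The remaining 2, *Cyp1* and *Cyp40*, are cyclophilins, which fold proteins and share with the P450 genes only the letters of the symbol. Of the 85 P450 symbols of this form in RefSeq 4 were not measured alone, namely *Cyp12d1-p*, *Cyp9f3* and the pseudogenes *Cyp6a15Psi* and *Cyp6t2Psi*. A gene with more than 1 probe set was represented by the brightest one, a choice that concerned *Cyp12e1* and *Cyp18a1* among the members.

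RNA was taken from the gut and from the carcass, meaning what was left of the fly once gut and head were removed, of females aged 7 to 12 days that had been kept together with males. The groups were *nub1* carcass, wt carcass, *nub1* gut and wt gut, with 3 arrays each from separate pools of 20 flies. The study does not say whether gut and carcass of a genotype came from the same flies. The *nub1* flies are the strain *nub1* b1 pr1, in which a retrotransposon insertion in nubbin lowers the isoform Nub-PD of this POU transcription factor while Nub-PB is still made. Their wt counterparts are labelled as OregonR and w1118, so that the *nub1* allele, the b1 and pr1 alleles and the strain background cannot be told apart in any comparison of genotypes. The study asked which genes Nub holds down or keeps active in the uninfected fly.

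P450 enzymes hold a haem group and insert oxygen into small molecules. Those in the endoplasmic reticulum receive electrons from NADPH-cytochrome P450 reductase and cytochrome b5, those in mitochondria from ferredoxins. Insect P450s fall into 4 clans: the CYP3 and CYP4 clans are large and hold many enzymes of toxin and fatty acid metabolism, whereas the small CYP2 and mitochondrial clans hold enzymes of the moulting hormone. Midgut, Malpighian tubules and fat body are the main sites of toxin metabolism in the fly. Of the 81 members, 4 belong to the CYP2 clan, 37 to the CYP3 clan, 32 to the CYP4 clan and 8 to the mitochondrial clan.

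Signals are MAS5 intensities on a linear scale, on which a level under 10 lies close to background. The signal of *nub*, from a probe set that names no transcript, was 420, 385 and 566 on the *nub1* gut arrays, against 282, 203 and 317 on the wt gut arrays, and it was under 10 on all carcass arrays. The midgut marker *mex1* summed to between 2048 and 3008 on the gut arrays of both genotypes and to between 9.15 and 41.1 on the carcass arrays. The 12 measured ovary and eggshell markers summed to between 37735 and 44615 on every carcass array. They also summed to 11966 and 20472 on wt gut arrays 2 and 3 and to 14900 on *nub1* gut array 2, against 114 to 1050 on the other gut arrays. The ejaculatory duct gene *Dup99B* had 444 and 781 on *nub1* gut arrays 1 and 3 and 86.0 on *nub1* carcass array 2, and at most 9.77 elsewhere, while the testis and accessory gland lists summed to under 25 on every array. The other duct markers did not follow *Dup99B* on array 1. *Ebp* and *EbpII* had 122.9 and 103.8 on *nub1* gut array 3, against 7.5 and 4.5 on *nub1* gut array 1. *EbpIII* had 1059 or more on every array of both tissues and genotypes. For the genotype comparison in gut, members whose call was lost or gained without *nub1* gut arrays 1 and 3, or without the 3 gut arrays with eggshell signal, are given below. Leaving out the first set keeps only array 2 in *nub1* gut, and leaving out the second keeps only array 1 in wt gut. The spread of such a group is then taken from the other groups.

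Most P450 genes gave a measurable signal. Of the 81 members, 70 reached 10 on all 3 arrays of at least 1 group, and 42 did so in every group. The other 11 members were *Cyp303a1* of the CYP2 clan, *Cyp28c1*, *Cyp308a1*, *Cyp6a17*, *Cyp6g2* and *Cyp6t3* of the CYP3 clan and *Cyp313a2*, *Cyp313a5*, *Cyp316a1*, *Cyp4aa1* and *Cyp4c3* of the CYP4 clan. Their highest signal on any array was 19.5, for *Cyp4aa1*, and they entered no test. More members were measurable in gut than in carcass: 62 reached 10 on all arrays in *nub1* gut and 65 in wt gut, against 51 in *nub1* carcass and 50 in wt carcass. All 8 mitochondrial members were above this level in both gut groups, where 6 were in *nub1* carcass and 5 in wt carcass.

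**Figure D1:**
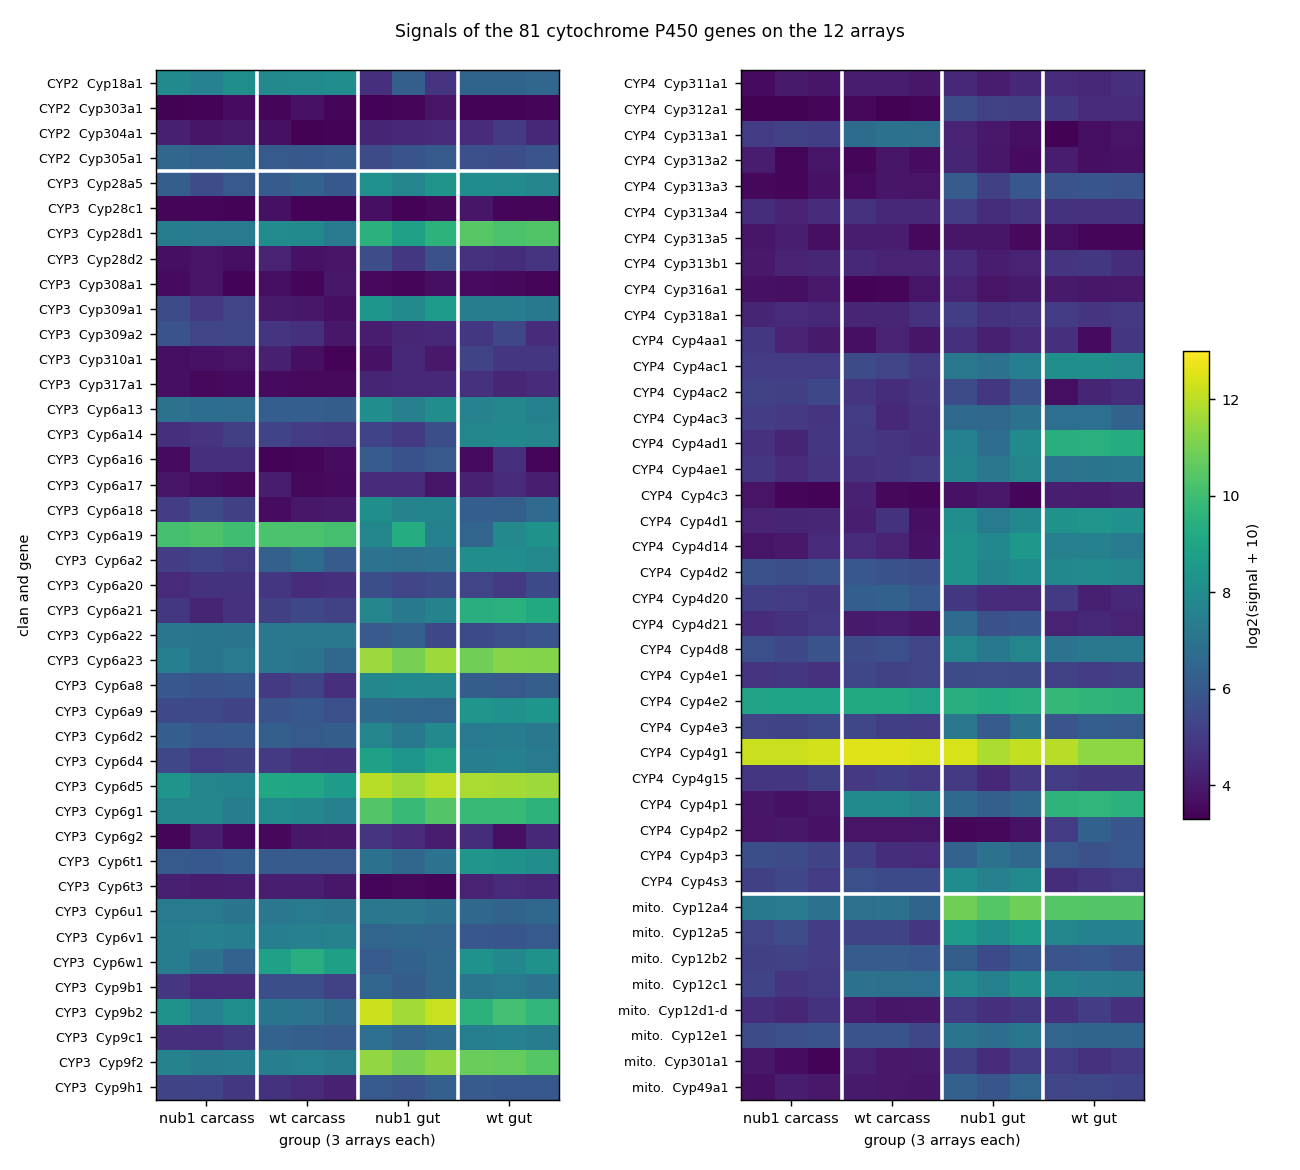
Heat map of log2(signal + 10) for the 81 cytochrome P450 genes (rows, grouped by clan, CYP2, CYP3, CYP4 and mitochondrial) on the 12 arrays (columns, 3 arrays for each of *nub1* carcass, wt carcass, *nub1* gut and wt gut). Rows such as *Cyp4g1* are bright in all 4 groups, many CYP3 clan rows are brighter in the gut columns, and 11 rows stay dark throughout.

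*Cyp4g1*, the oenocyte enzyme that carries out the last step of cuticular hydrocarbon synthesis, had signals of 4810, 4828 and 5216 in *nub1* carcass, against 5887, 5892 and 5380 in wt carcass. In gut it had 5496, 3585 and 4402 on the *nub1* arrays, against 3978, 2629 and 2584 on the wt arrays. Neither genotype comparison reached the 2-fold minimum, and the log2 fold changes were −0.21 in carcass and 0.56 in gut. Of the other oenocyte markers, *FASN3* was also present on the gut arrays. *FarO* lay near background in wt gut, with 15.5, 2.18 and 11.3. Their log2 fold changes in gut were 1.22 and 0.79, in the direction of *Cyp4g1* there. *FASN3* and *FarO* summed to between 223 and 368 in *nub1* gut, against 82.2 to 152 in wt gut and 535 to 685 in carcass, and *FASN3* passed the test in *nub1* gut. Their part in the gut level of *Cyp4g1* was not tested.

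The comparison of gut with carcass within each genotype asked in which tissue the P450 genes gave more signal. In *nub1* flies, 41 of the 64 members tested were higher in gut than in carcass and 5 were lower. In wt flies, 39 of 68 were higher in gut and 6 lower. A member was counted when its Benjamini-Hochberg adjusted p in limma was under 0.05 and its fold at least 2. Over all probe sets tested, 15.6% were higher and 22.7% lower in *nub1* gut than in *nub1* carcass, and 17.8% were higher and 21.9% lower in wt gut than in wt carcass. The median log2 fold change of the members was 1.67 in *nub1* and 1.21 in wt flies, beside −0.46 and −0.32 over all tested probe sets. With members under 10 in a whole group set at their lower bound, the medians were 1.61 and 1.17. Of the members that reached 10 in both tissues, and so did not pass the filter through the brighter tissue alone, 30 of 49 were higher in *nub1* gut and 28 of 47 in wt gut. In bulk tissue, more cells of a type and more RNA per cell cannot be told apart.

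By clan, members higher in gut outnumbered those lower in gut among the CYP3, CYP4 and mitochondrial members of both genotypes. In *nub1* flies 20 of 30 tested CYP3 members were higher in gut and 3 lower, 15 of 24 CYP4 members higher and 1 lower, and 6 of 8 mitochondrial members higher and none lower. In wt flies the counts were 22 of 31 higher and 3 lower, 13 of 26 higher and 2 lower, and 3 of 8 higher and none lower. Of the CYP2 members, *Cyp304a1* was higher in wt gut and *Cyp18a1* lower in gut in both genotypes.

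**Figure D2:**
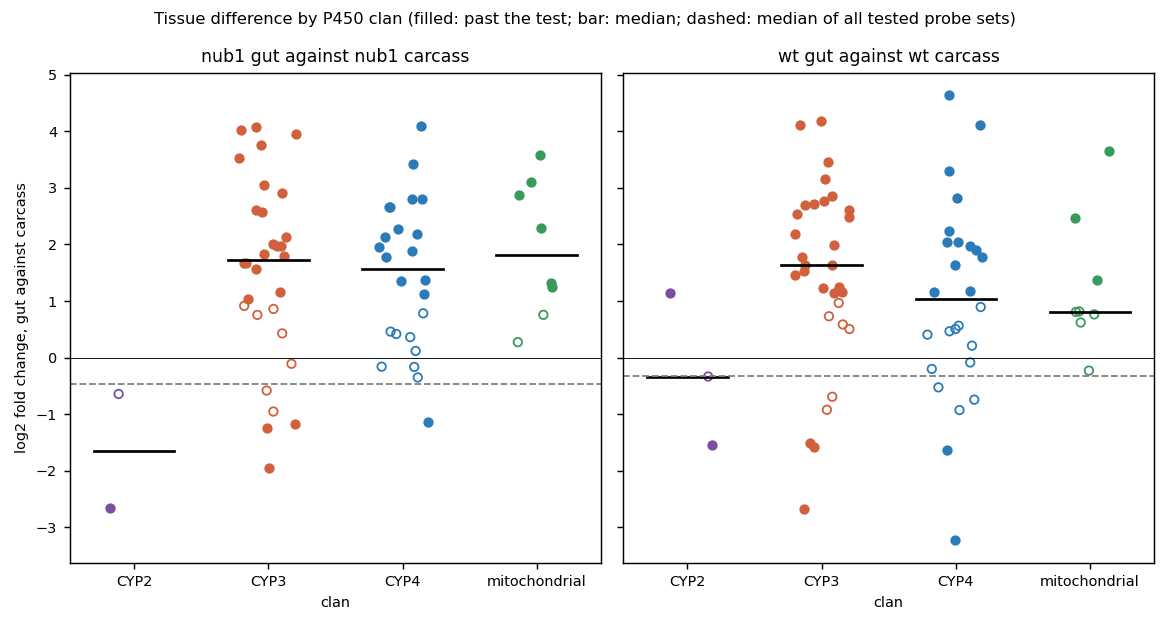
Log2 fold change of gut against carcass (vertical axis) for each tested P450 gene, by clan, in *nub1* flies (left) and wt flies (right). Filled points passed the test, horizontal bars are clan medians and the dashed line is the median of all tested probe sets. Most points of the CYP3, CYP4 and mitochondrial clans lie above 0.

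Among wt flies the 10 members with the largest fitted log2 fold change in gut were *Cyp4ad1*, *Cyp6a23*, *Cyp4d1*, *Cyp6a21*, *Cyp12a4*, *Cyp309a1*, *Cyp4d14*, *Cyp9f2*, *Cyp9b2* and *Cyp4ac1*. *Cyp4ad1* had 678, 695 and 616 in wt gut, against 20.5, 16.7 and 14.3 in wt carcass (log2 fold change 4.63, SE 0.24, adjusted p = 8.37e-09). *Cyp6a23* had 1883, 2385 and 2335, against 134, 121 and 83.2 (log2 fold change 4.19, SE 0.19, adjusted p = 3.34e-09). *Cyp12a4*, a mitochondrial enzyme linked to lufenuron resistance, had 1399, 1340 and 1339, against 109, 115 and 76.5 (log2 fold change 3.65, SE 0.16, adjusted p = 2.13e-09). In all 3 the gut arrays were far from the carcass arrays, with no overlap. The log2 fold changes of the others were 4.11 for *Cyp6a21*, 4.11 for *Cyp4d1*, 3.29 for *Cyp4d14*, 3.16 for *Cyp9f2*, 2.86 for *Cyp9b2* and 2.81 for *Cyp4ac1*. *Cyp309a1* had 155, 159 and 138 in wt gut and was under 10 on all wt carcass arrays (5.9, 5.24 and 3.06), so that it was at least 15-fold higher in wt gut. The carcass signals of *Cyp4d1* (7.35, 16.3 and 3.12) and *Cyp4d14* (11.8, 9.23 and 3.64) also lay near 10, and the place of these 3 among the 10 depends on the pseudocount.

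Only 6 members were higher in wt carcass than in wt gut. *Cyp313a1* was under 10 on all wt gut arrays (0.19, 2.61 and 3.97) and had 95.3, 109.9 and 107 in wt carcass, so that it was at least 10.4-fold lower in gut. *Cyp6a19* had 78.9, 221 and 305 in wt gut, against 1206, 1200 and 1132 in wt carcass (log2 fold change −2.67, SE 0.46, adjusted p = 0.000195). Its level in gut was not even among the arrays. On the wt gut array with little eggshell signal it was 78.9, and on the 2 others 221 and 305. In *nub1* gut, 619 on array 2, which carries eggshell signal, stood against 206 and 181 on arrays 1 and 3. Without these 3 arrays the log2 fold change of wt gut against wt carcass was −3.74, and the part of ovary RNA in the gut level was not tested. In *nub1* flies, the log2 fold change of gut against carcass was −1.95, and −0.87 when array 2 was the only *nub1* gut array. The log2 fold changes of the other 4 were −1.64 for *Cyp4d20*, −1.58 for *Cyp6v1*, −1.54 for *Cyp18a1* and −1.51 for *Cyp6a22*.

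In carcass, few P450 genes differed between the genotypes. Of 56 members tested, 4 were higher in *nub1* carcass and 7 were lower, and 45 did not pass the test. These are 7.14% and 12.5% of the members, where 2.77% of all tested probe sets were higher and 1.94% lower. Of the 45 members that reached 10 in both groups, 1 was higher and 6 were lower, and of the 11 that reached it in 1 group only, 3 were higher and 1 lower. The median log2 fold change of the members was −0.06, near that of all tested probe sets at −0.02. Of the 11 changed members 7 belong to the CYP3 clan (28 tested), 3 to the CYP4 clan (20 tested) and 1 to the mitochondrial clan (6 tested).

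The largest of these differences was in *Cyp4p1*. Its signal was 4.86, 3.45 and 4.48 in *nub1* carcass, against 231, 233 and 189 in wt carcass, at least 21.7-fold lower (adjusted p = 1.05e-08). The *nub1* arrays were all under the signal minimum of 10, and the wt arrays all well above it. *Cyp6w1*, an enzyme linked to DDT resistance, had 155, 115 and 71.1 in *nub1* carcass, against 457, 676 and 436 in wt carcass (log2 fold change −2.14, SE 0.25, adjusted p = 0.000111). For *Cyp12c1* the signals were 29.4, 17.3 and 20.9, against 111, 106 and 105 (log2 fold change −1.87, SE 0.16, adjusted p = 1.15e-05). The *nub1* arrays of both genes spread by more than 1.5-fold, and all lay below every wt array. *Cyp313a1* had 21.4, 27.2 and 24.5 in *nub1* carcass, against 95.3, 109.9 and 107 in wt carcass (log2 fold change −1.73, SE 0.17, adjusted p = 2.92e-05). *Cyp9c1* had 14.4, 15.1 and 19.2, against 72.6, 66.3 and 58.5 (log2 fold change −1.53, SE 0.13, adjusted p = 8.21e-06). In these 2 the arrays of a group lay close together and the groups far apart. *Cyp6a2*, inducible by phenobarbital and linked to DDT resistance, had 23.4, 28.6 and 22.7, against 66.5, 97.1 and 59.8 (log2 fold change −1.25, SE 0.15, adjusted p = 0.000123). *Cyp4d20* had 24.6, 21.9 and 18.5, against 63, 68.5 and 52.5 (log2 fold change −1.17, SE 0.20, adjusted p = 0.00139). In neither did the genotypes overlap. *Cyp4d20* stood at −0.98 on the log2 scale, under the fold minimum, after quantile normalization, and at −0.80 with a pseudocount of 32. *Cyp6a2* stood at −0.89 with that pseudocount, and its adjusted p by the methods' t-test after Benjamini-Hochberg adjustment was 0.0616.

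The 4 members that rose in *nub1* carcass were low to moderate in signal. *Cyp6a18* had 23.3, 36.4 and 24.8 in *nub1* carcass and was under 10 on all wt carcass arrays (2.36, 5.04 and 5.87), at least 2.76-fold higher (adjusted p = 0.000309). *Cyp309a1* had 36.9, 20.2 and 29.8, against 5.9, 5.24 and 3.06, at least 2.81-fold higher (adjusted p = 0.000431). Every *nub1* array of both genes was above 20 and every wt array under 6. *Cyp9b2* had 297, 185 and 274, against 125, 119 and 91.3 (log2 fold change 1.09, SE 0.21, adjusted p = 0.0037). *Cyp309a2* had 45.6, 30.2 and 30.9, against 16.8, 14.4 and 5.21 (log2 fold change 1.07, SE 0.25, adjusted p = 0.0114). The last 2 were near the fold minimum. Without wt carcass array 3 the log2 fold changes were 0.96 for *Cyp9b2* and 0.82 for *Cyp309a2*, and without *nub1* carcass array 1 they were 0.96 and 0.91, so that neither was called. Of the 4, all but *Cyp309a2* were higher in gut than in carcass in both genotypes. The excess of *nub1* over wt carcass was 7.71% of the mean *nub1* gut signal for *Cyp309a1*, 10.9% for *Cyp6a18* and 3.32% for *Cyp9b2*, where it was 0.417% for the midgut marker *mex1*. In carcass *mex1* overlapped between the genotypes, with 41.1, 13.1 and 29.35 in *nub1* and 9.15, 26.4 and 14.7 in wt flies. The part of gut tissue in the carcass signals was not tested.

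In gut, 8 of the 69 members tested were higher in *nub1* flies and 11 were lower, and 50 did not pass the test. These are 11.6% and 15.9% of the members, where 3.15% of all tested probe sets were higher and 6.13% lower. Of the 58 members that reached 10 in both groups, 5 were higher and 10 lower, and of the 11 that reached it in 1 group only, 3 were higher and 1 lower. After quantile normalization 10 members were higher and 9 lower. The median log2 fold change of the members was 0.17, where that of all tested probe sets was −0.06. Of the 19 changed members 12 belong to the CYP3 clan (32 tested), 6 to the CYP4 clan (26 tested) and 1 to the CYP2 clan (3 tested). None of the 8 mitochondrial members passed the test in gut, and their log2 fold changes, of which all 8 were above 0, had a median of 0.35.

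The largest rise in *nub1* gut was in *Cyp4s3*, with 249, 176 and 237 in *nub1* gut, against 13.7, 17.6 and 22.8 in wt gut (log2 fold change 3.04, SE 0.16, adjusted p = 1.47e-07). *Cyp9b2* had 4837, 3204 and 4621, against 735, 1081 and 809 (log2 fold change 2.25, SE 0.21, adjusted p = 1.12e-05). For both, the lowest *nub1* array was well above the highest wt array. *Cyp6a16* had 56.6, 44.2 and 54.3 in *nub1* gut, against 2.12, 14.6 and 0.85 in wt gut (log2 fold change 2.06, SE 0.32, adjusted p = 0.000426). Of its wt arrays, 2 were near 0 and array 2 was higher, though below every *nub1* array. *Cyp6a8*, a gene inducible by caffeine and barbiturates, had 214, 231 and 223, against 61, 54 and 65.2 (log2 fold change 1.73, SE 0.14, adjusted p = 4.35e-06). *Cyp6a18* had 267, 189.7 and 195, against 63.2, 66.3 and 93.4 (log2 fold change 1.43, SE 0.19, adjusted p = 0.000132). *Cyp6d4* had 447, 328 and 462, against 165, 180.2 and 153 (log2 fold change 1.25, SE 0.15, adjusted p = 5.98e-05). In none of these did the genotypes overlap.

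*Cyp4d21* and *Cyp4ac2* were the other 2 members that rose. *Cyp4d21*, also known as sex-specific enzyme 1 for its higher level in males, had 92.2, 42.5 and 49.1 in *nub1* gut, against 8.93, 11.4 and 9.15 in wt gut (log2 fold change 1.78, SE 0.21, adjusted p = 6.35e-05). *Dup99B* had 444, 9.77 and 781 on these *nub1* gut arrays. Leaving out arrays 1 and 3 keeps only array 2, which carries eggshell signal, in *nub1* gut. The part of ejaculatory duct tissue in the level of *Cyp4d21* was not tested. By the methods' t-test after Benjamini-Hochberg adjustment, the adjusted p of *Cyp4d21* was 0.122. *Cyp4ac2* had 36.5, 19.1 and 42.4, against 2.69, 9.79 and 13.5 (log2 fold change 1.20, SE 0.24, adjusted p = 0.00268). Its lowest *nub1* array was near its highest wt array. The log2 fold change was 0.94 without wt gut array 1 and 0.69 without *nub1* gut arrays 1 and 3. It was 1.96 without the 3 gut arrays with eggshell signal. Without *nub1* gut arrays 1 and 3 the log2 fold change of *Cyp6d4* was 0.94, under the fold minimum.

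Among the 11 members that fell in *nub1* gut, *Cyp4p1* had 90.7, 65.1 and 85.9 in *nub1* gut, against 777, 808 and 707 in wt gut (log2 fold change −3.10, SE 0.13, adjusted p = 2.61e-08). *Cyp6a14* had 28.5, 21 and 39.5, against 204, 216 and 202 (log2 fold change −2.48, SE 0.17, adjusted p = 1.13e-06). Both kept a measurable signal in *nub1* gut. *Cyp4p2* did not, and had 1.2, 1.28 and 3.54, against 21.9, 69.9 and 49.8, at least 4.24-fold lower (adjusted p = 6.68e-05). Its brightest wt arrays were the 2 with eggshell signal, and without the 3 gut arrays with that signal the fitted log2 fold change was −1.37, against −2.16 over all arrays. *Cyp4ad1* had 179, 100.3 and 231, against 678, 695 and 616 (log2 fold change −1.97, SE 0.24, adjusted p = 7.01e-05). Array 2 was the lowest of the *nub1* gut arrays for *Cyp4ad1*, and when it was the only one the log2 fold change was −2.61. *Cyp6a21* had 201, 140.3 and 191, against 668, 710.1 and 575 (log2 fold change −1.83, SE 0.17, adjusted p = 8.67e-06). *Cyp6w1* had 56.6, 69.8 and 84.1, against 292, 217 and 296 (log2 fold change −1.80, SE 0.25, adjusted p = 0.000204). *Cyp6a9* had 90.8, 81.4 and 78.4, against 321, 282 and 324 (log2 fold change −1.77, SE 0.11, adjusted p = 4.45e-07). Except in *Cyp4p2*, whose wt arrays spread widely, the 2 genotypes lay apart by more than the spread of their arrays.

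The 4 smaller falls in gut were in *Cyp6t1*, *Cyp18a1*, *Cyp6a2* and *Cyp28d1*. *Cyp6t1* had 112, 81.2 and 119 in *nub1* gut, against 320.1, 295 and 261 in wt gut (log2 fold change −1.42, SE 0.13, adjusted p = 1.13e-05). *Cyp6a2* had 118, 106 and 118, against 262, 255 and 224 (log2 fold change −1.05, SE 0.15, adjusted p = 0.000239), and stood at −0.95 after quantile normalization. *Cyp28d1*, linked to nicotine resistance, had 730.5, 449 and 754, against 1408, 1200 and 1298 (log2 fold change −1.04, SE 0.21, adjusted p = 0.00244). The log2 fold change of *Cyp28d1* was −0.80 without *nub1* gut array 2, −0.98 without wt gut array 1, −0.91 without the 3 gut arrays with eggshell signal and −0.96 after quantile normalization, under the fold minimum each time. *Cyp18a1*, which inactivates the moulting hormone, had 14.3, 65.6 and 17.5, against 75.2, 76.4 and 79.5 (log2 fold change −1.24, SE 0.33, adjusted p = 0.0121). Its fall was seen on *nub1* gut arrays 1 and 3, while array 2, which carries eggshell signal, was near the wt level. With array 2 as the only *nub1* gut array the log2 fold change was −0.20, and without array 1 it was −0.93. When only the gut arrays were fitted, the adjusted p was 0.0576. The second probe set of the gene gave −0.66 and did not pass the fold minimum. In carcass, where the eggshell markers were high on every array, *Cyp18a1* had 228, 185 and 267 in *nub1* flies, against 225, 245 and 258 in wt flies.

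**Figure D3:**
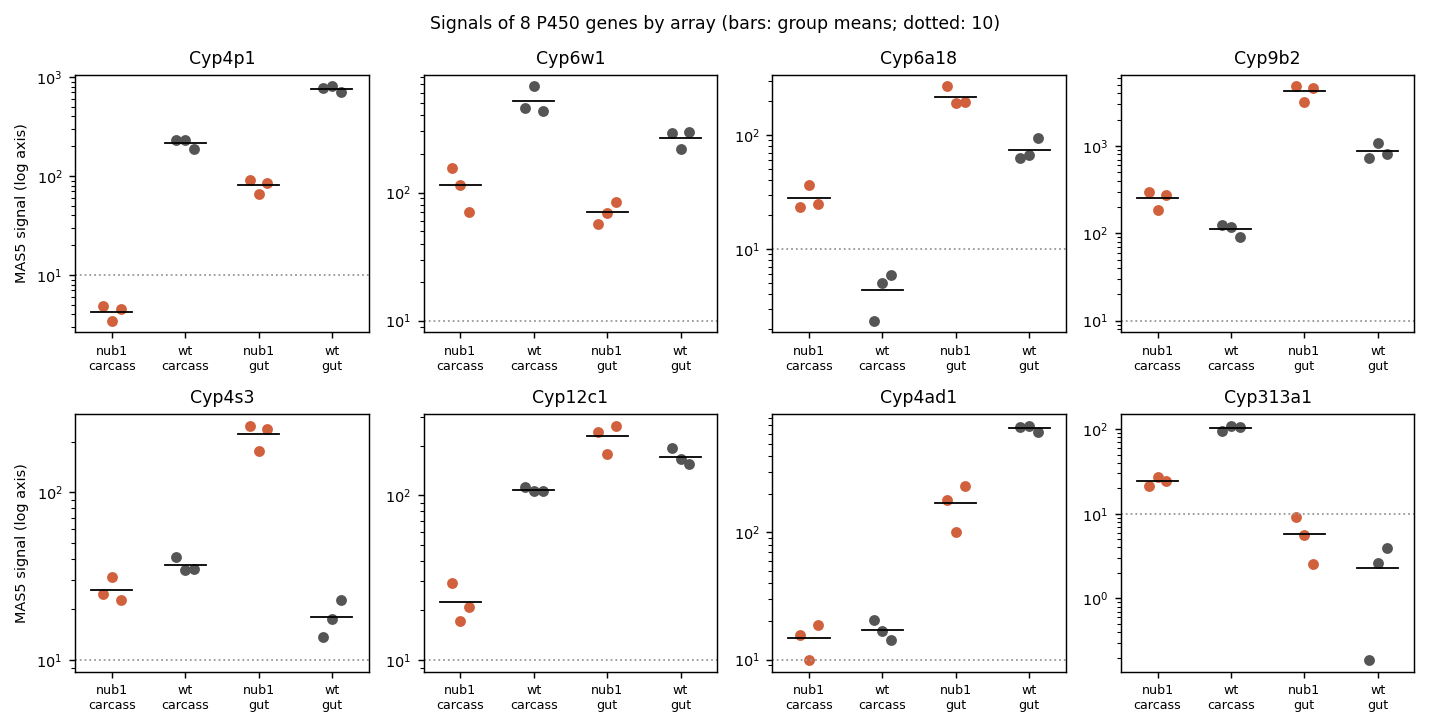
MAS5 signal (log axis) of 8 P450 genes on each array of *nub1* carcass, wt carcass, *nub1* gut and wt gut, with bars at the group means and a dotted line at 10. *Cyp4p1* and *Cyp6w1* are lower in *nub1* in both tissues, *Cyp6a18* and *Cyp9b2* higher in both, *Cyp4s3* higher and *Cyp4ad1* lower in *nub1* gut, and *Cyp12c1* and *Cyp313a1* lower in *nub1* carcass.

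Both tissues shared 5 changed members, each in the same direction: *Cyp6a18* and *Cyp9b2* rose, and *Cyp4p1*, *Cyp6w1* and *Cyp6a2* fell. No member rose in one tissue and fell in the other, among the 55 tested in both tissues. In all, 25 members changed in carcass or gut. The same overlaps were not counted over all tested probe sets, so none of this can be called particular to P450 genes.

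Whether the genotype effect differed between tissues was tested directly, as the log2 fold change in gut minus that in carcass. This difference is built from the same arrays as the comparisons within each tissue. Of 70 members, 7 had a higher effect in gut and 7 a lower one, where 1.86% of all tested probe sets were higher and 4.70% lower. *Cyp4s3* was the largest of the first kind. Its signals in carcass, 24.8, 31.3 and 22.7 in *nub1* and 40.9, 34.2 and 34.6 in wt flies, showed no rise, and the difference of effects was 3.40, SE 0.23, adjusted p = 4.73e-06. *Cyp12c1* fell in carcass and had 241, 177 and 265 in *nub1* gut, against 193, 166 and 155 in wt gut (difference 2.25, SE 0.23, adjusted p = 0.000105). *Cyp313a1* fell in carcass and was under 10 in gut in both genotypes, so that its difference of 2.09 rests on the carcass arrays. The others were *Cyp4d20* (1.29, and 0.89 without the 3 gut arrays with eggshell signal), *Cyp6d5* (1.17), *Cyp9b2* (1.16) and *Cyp4d21* (1.04). Leaving out *nub1* gut arrays 1 and 3 keeps a single *nub1* gut array. The differences were then 0.93 for *Cyp6d5*, 0.79 for *Cyp9b2* and 0.66 for *Cyp4d21*, all under the fold minimum. *Cyp9b2* rose in both tissues and by more in gut. *Cyp6d5* passed the test in neither tissue alone (log2 fold changes −0.99 in carcass and 0.18 in gut), with 313, 199.9 and 194 in *nub1* carcass, against 524, 509 and 383 in wt carcass, and 3978, 3107 and 4047 in *nub1* gut, against 3445, 3325 and 3016 in wt gut. In carcass it was called, at −1.13 without wt carcass array 3 and at −1.21 without *nub1* carcass array 1.

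The 7 members with a lower effect in gut were *Cyp6a14*, *Cyp4p2*, *Cyp4ad1*, *Cyp309a2*, *Cyp6t1*, *Cyp6a9* and *Cyp6a21*. *Cyp6a14* had 15.3, 17.5 and 24.8 in *nub1* carcass, against 28, 22 and 19.9 in wt carcass, where the genotypes overlapped, and the difference of effects was −2.29, SE 0.25, adjusted p = 0.000156. *Cyp4ad1* likewise overlapped in carcass, with 15.7, 9.92 and 18.7 in *nub1* and 20.5, 16.7 and 14.3 in wt flies (difference −1.83, SE 0.34, adjusted p = 0.0045). For *Cyp309a2* the effects had opposite signs: it rose in carcass and had 6.71, 10.2 and 10.6 in *nub1* gut, against 19.4, 31.3 and 13.4 in wt gut, where it did not pass the test (difference −1.74, SE 0.35, adjusted p = 0.00734). *Cyp4p2* was under 10 in both carcass groups and in *nub1* gut, so that its fitted difference of −2.16 depends on the pseudocount. The differences of the remaining members were −1.44 for *Cyp6t1*, −1.34 for *Cyp6a9* and −1.20 for *Cyp6a21*. *Cyp6a21* was also lower in *nub1* carcass, at −0.63 (adjusted p = 0.022), under the fold minimum. With a pseudocount of 1 its difference was −0.96 (adjusted p = 0.0694) and was not called. All 7 members but *Cyp309a2* were higher in gut than in carcass in wt flies. *Cyp9b2* and *Cyp4d21* were the least stable of the 14: without wt gut array 1 their adjusted p was 0.0576 and 0.0771, and leaving out other single arrays also ended either call.

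**Figure D4:**
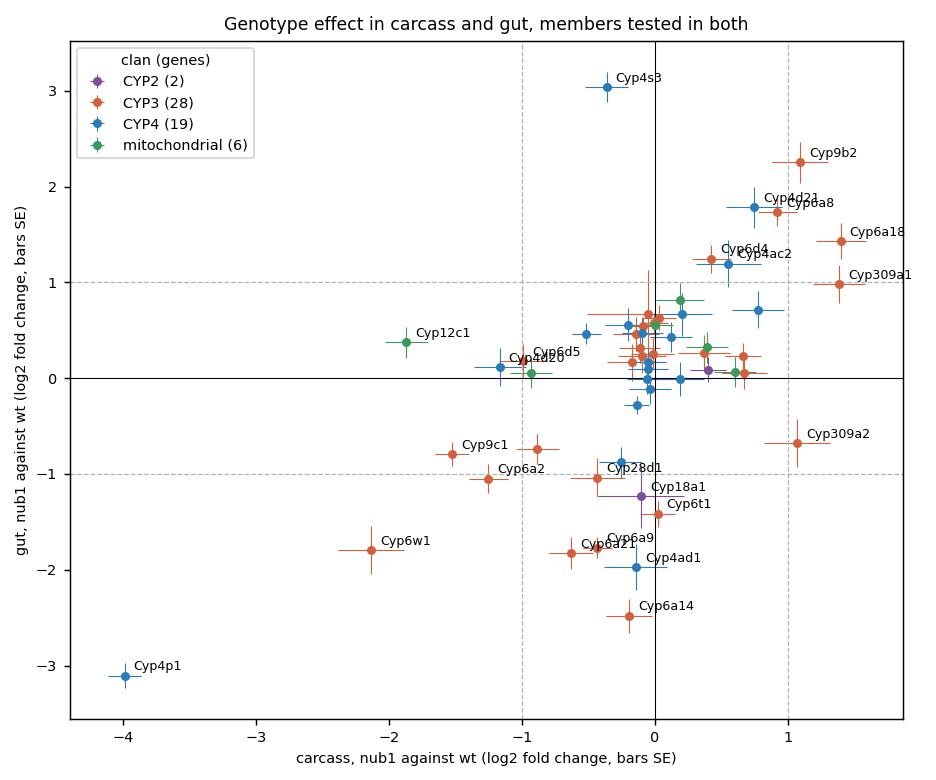
Log2 fold change of *nub1* against wt in carcass (horizontal axis) and in gut (vertical axis) with SE bars, for the 55 P450 genes tested in both tissues, coloured by clan. Named genes passed the test in a tissue or for the difference. *Cyp4p1* and *Cyp6w1* lie low in both, *Cyp9b2* and *Cyp6a18* high in both, while *Cyp4s3*, *Cyp4ad1* and *Cyp6a14* are displaced in gut only and *Cyp12c1* in carcass only.

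A list of P450 genes that are inducible by toxins or linked to insecticide resistance is given here by their own probe sets. The list is not complete and leaves out *Cyp28d1*, described above as linked to nicotine resistance. Of the 10 genes listed 9 had a probe set of their own and 8 were tested. In carcass none of the 8 rose and 2 (25.0%) fell, *Cyp6w1* and *Cyp6a2*, beside 2.77% higher and 1.94% lower over all tested probe sets. In gut *Cyp6a8* rose (12.5%), and *Cyp6w1*, *Cyp6a21* and *Cyp6a2* fell (37.5%), beside 3.15% higher and 6.13% lower over all tested probe sets. The median log2 fold changes were −0.39 in carcass and 0.12 in gut, beside −0.02 and −0.06 over all tested probe sets. *Cyp6g1*, whose overproduction gives resistance to DDT, had 203, 209 and 156 in *nub1* carcass, against 244, 212 and 174 in wt carcass. In gut it had 1336, 926 and 1363, against 924, 928 and 748 (log2 fold change 0.46, SE 0.17, adjusted p = 0.0593). Its genotypes overlapped in both tissues. For *Cyp12a4* the log2 fold changes were 0.39 in carcass and 0.32 in gut, and those of *Cyp12d1-d*, measured alone, 0.60 and 0.07. *Cyp6g2* was not above the signal minimum in any group.

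A pair of probe sets that name a P450 gene together with another gene lies outside the rule and the counts, and both are described because of their values. The one shared by *Cyp12d1-d* and *Cyp12d1-p*, near-identical neighbours induced by many toxins, had 110.2, 92.5 and 108 in *nub1* carcass and 1.79, 1.62 and 3.42 in wt carcass, at least 10.3-fold higher (adjusted p = 1.87e-06). In gut it had 210.3, 122 and 208 in *nub1* and 21, 39.9 and 19.8 in wt flies (log2 fold change 2.37, SE 0.22, adjusted p = 1.17e-05). The probe set of *Cyp12d1-d* alone passed the test in neither tissue, and had 13.8, 10.5 and 16.2 in *nub1* carcass, against 6.38, 4.96 and 5.08 in wt carcass, and 20.7, 14.9 and 19.6 in *nub1* gut, against 14.1, 23.6 and 14.4 in wt gut. Which of the 2 genes the shared probe set measured cannot be told apart. The second, shared by *Cyp6v1* and the zinc finger gene *shn*, had 787, 462 and 513 in *nub1* carcass, against 29.2, 18.3 and 20.1 in wt carcass (log2 fold change 4.17, SE 0.18, adjusted p = 1.14e-07), and 145, 161 and 173 in *nub1* gut, against 48.7, 44 and 41.2 in wt gut (log2 fold change 1.63, SE 0.18, adjusted p = 4.46e-05). The probe set of *Cyp6v1* alone had 156, 172 and 167, against 163, 176 and 189.6, and log2 fold changes of −0.09 in carcass and 0.54 in gut.

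Members with known roles in development, physiology and behaviour formed another list. Of 10 such genes, 5 were tested in carcass and none passed, and 8 were tested in gut, where *Cyp4d21* rose and *Cyp18a1* fell. In gut this is 12.5% in each direction, beside 3.15% higher and 6.13% lower over all tested probe sets. The log2 fold changes in gut were 0.26 for *Cyp6a20*, which affects aggression, 0.02 for *Cyp301a1*, which acts in cuticle formation, and −0.12 for *Cyp4g15*. They were −0.24 for *Cyp311a1* and −0.95 for *Cyp310a1*. The last had 3.6, 11.1 and 5.74 in *nub1* gut, against 29.4, 18.7 and 18.9 in wt gut, without overlap but under the fold minimum. *Cyp303a1* and *Cyp6a17* were not above the signal minimum in any group.

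The P450 genes of ecdysteroid synthesis have other symbols and are no members, and 5 of 6 had a probe set of their own. In carcass none of the 2 tested passed. Of 3 tested in gut, only *shd*, which makes the active hormone from ecdysone, passed (33.3%, beside 6.13% lower over all tested probe sets). It had 18.7, 15.3 and 22.2 in *nub1* gut, against 56.6, 55.2 and 56.7 in wt gut (log2 fold change −1.21, SE 0.12, adjusted p = 1.45e-05), and 13.6, 11.9 and 14.7 in *nub1* carcass, against 12.6, 15.4 and 13.6 in wt carcass. The electron donors that could be followed, *Cyt-b5*, *Fdx1* and *Fdx2*, passed the test in neither tissue. Their log2 fold changes were −0.31, −0.04 and −0.32 in carcass and −0.18, 0.02 and −0.23 in gut.

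Of 4 regulators of toxin responses, 1 (25.0%) changed in each tissue. Over all tested probe sets, 2.77% were higher and 1.94% lower in carcass, and 3.15% and 6.13% in gut. *Hr96*, the xenobiotic nuclear receptor, had 424, 443 and 510.1 in *nub1* gut, against 107, 87.3 and 91 in wt gut (log2 fold change 2.16, SE 0.12, adjusted p = 1.59e-07). In carcass it had 162, 148 and 142 in *nub1* and 116, 144 and 117 in wt flies, and the difference of the effects was 1.92, SE 0.16, adjusted p = 2.71e-05. The Nrf2 relative *cnc* had 178, 149 and 189 in *nub1* carcass, against 605, 579.6 and 423 in wt carcass (log2 fold change −1.57, SE 0.23, adjusted p = 0.00066), and 1056, 484 and 639 in *nub1* gut, against 1490, 1307 and 1187 in wt gut (log2 fold change −0.93, SE 0.23, adjusted p = 0.00957). It was thus lower on every *nub1* array, in gut without reaching the fold minimum. The partner of *cnc*, *maf-S*, stood at −0.43 in carcass and −0.73 in gut on the log2 scale, and its inhibitor *Keap1* 0.09 and 0.07.

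Markers of other cell types moved with some of these results. Of the 8 Malpighian tubule markers measured, 7 were tested in gut. *Irk3* and *Oatp58Db* fell in *nub1* gut (28.6%, beside 6.13% lower over all tested probe sets) while none was called higher. The log2 fold changes of 5 were below 0 and those of 2 above 0. *Oatp58Da* had 267, 196 and 251 in *nub1* gut, against 159, 149 and 136 in wt gut (log2 fold change 0.64), under the fold minimum. The sum of the 8 was between 724 and 1002 in *nub1* gut, against 1113 to 1276 in wt gut. In carcass 5 were tested and *ZnT35C* fell (20.0%, beside 1.94% lower over all tested probe sets). The sum of the 8 was 236 to 255 in *nub1* carcass, against 353 to 406 in wt carcass. *ZnT35C* averaged 41 ± 7.23 in *nub1* carcass and 205 ± 12.8 in wt carcass (SD, n = 3 each), while *Oatp58Da* and *Oatp58Dc* had log2 fold changes of 0.55 and 0.71 there; neither was called. The marker *tio* was close to 0 on every array, and Uro was not measured alone. Of the 7 fat body markers, 6 were tested in each tissue. The larval gene *Fbp1* was under 10 throughout, *Lsp2* rose in *nub1* carcass and *Yp3* fell in *nub1* gut, and the sum was 8651 to 14260 in *nub1* gut, against 17078 to 21444 in wt gut. The part of tubule and fat body tissue in the P450 results of gut and carcass was not tested.

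Many P450 genes lie side by side in the genome. By their order in RefSeq, 43 members lie in 15 clusters of 2 or more in which at most 1 other gene separates neighbours. The largest cluster holds 9 members, in the order *Cyp6a22*, *Cyp6a17*, *Cyp6a23*, *Cyp6a19*, *Cyp6a9*, *Cyp6a20*, *Cyp6a21*, *Cyp6a8* and *Cyp317a1*. In gut *Cyp6a9* and *Cyp6a21* fell while *Cyp6a8*, next to *Cyp6a21*, rose, and none of the 9 passed the test in carcass. No other of the 15 clusters held members called in opposite directions in a tissue. Another member of the largest cluster, *Cyp6a23*, had 2971, 2032 and 3017 in *nub1* gut, against 1883, 2385 and 2335 in wt gut, with overlap of the genotypes. The cluster also holds genes of opposite tissue preference, as *Cyp6a23* was higher in gut and *Cyp6a19* and *Cyp6a22* higher in carcass.

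In the cluster of *Cyp4p2*, *Cyp4p1* and *Cyp4p3*, the first 2 fell in *nub1* gut while *Cyp4p3* had 70.6, 113 and 82.5 in *nub1* gut, against 55.1, 42.4 and 50.7 in wt gut (log2 fold change 0.71, SE 0.19, adjusted p = 0.0139). In carcass *Cyp4p1* fell, *Cyp4p2* was under 10 in both genotypes and *Cyp4p3* had 39.4, 35.6 and 29.4 in *nub1* carcass, against 24.2, 13.7 and 12.1 in wt carcass (log2 fold change 0.77, SE 0.19, adjusted p = 0.017). No array of *nub1* overlapped with wt for *Cyp4p3*, whose values over all arrays were under the fold minimum in both tissues. Of the pair *Cyp9b1* and *Cyp9b2*, *Cyp9b2* rose in both tissues while the log2 fold changes of *Cyp9b1* were −0.89 in carcass and −0.74 in gut. Of the pair *Cyp309a1* and *Cyp309a2*, both rose in *nub1* carcass. In gut *Cyp309a1* had 323, 229 and 390.1 in *nub1* and 155, 159 and 138 in wt flies (log2 fold change 0.98, SE 0.20, adjusted p = 0.00235), just under the fold minimum, whereas *Cyp309a2* had −0.68. In the cluster of *Cyp4ac1*, *Cyp4ac2* and *Cyp4ac3* the log2 fold changes in gut were −0.88, 1.20 and 0.00, and in that of *Cyp4ad1*, *Cyp4e2* and *Cyp4e1* they were −1.97, −0.28 and 0.47. Clusters were set by position, and signal from a related neighbour on the probes of a member was not tested.

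**Figure D5:**
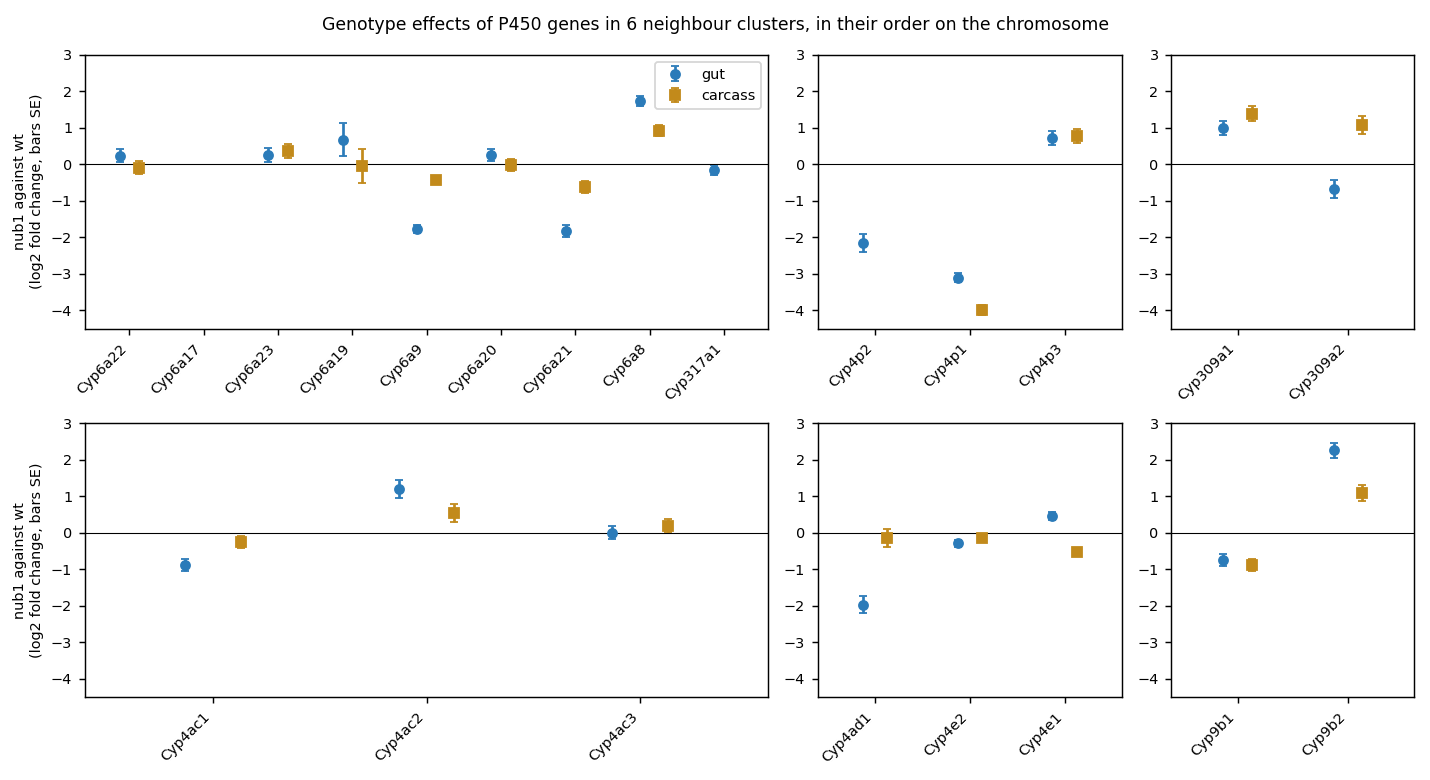
Log2 fold change of *nub1* against wt, with SE bars, in gut (circles) and carcass (squares) for the P450 genes of 6 neighbour clusters, in their order on the chromosome. A gene without a symbol in a tissue was not tested there. Neighbours such as *Cyp6a21* and *Cyp6a8*, *Cyp4p1* and *Cyp4p3*, and *Cyp9b1* and *Cyp9b2* lie on opposite sides of 0. Of these pairs, only *Cyp6a21* and *Cyp6a8* were both called, in gut.

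Some members that were not called in gut over all arrays reached the fold minimum without certain arrays. These fits left a single array in *nub1* gut or in wt gut, so that effect sizes alone are given. *Cyp6a19* had a log2 fold change of 0.67 in gut over all arrays, 1.20 without the 3 gut arrays with eggshell signal and 1.76 without *nub1* gut arrays 1 and 3. The array left in *nub1* gut for the last value carries eggshell signal. Without the arrays with eggshell signal, *Cyp4e3* (1.18), *Cyp309a1* (1.15) and *Cyp49a1* (1.05) also reached the fold minimum as rises and *Cyp310a1* (−1.43) as a fall. Without *nub1* gut arrays 1 and 3, *Cyp4p3* (1.06) reached the fold minimum as a rise, and *Cyp4ac1* (−1.16) and *Cyp9c1* (−1.03) as falls. Over all arrays, the values of these members in gut were 0.67 for *Cyp4e3*, 0.98 for *Cyp309a1*, 0.90 for *Cyp49a1*, −0.95 for *Cyp310a1*, 0.71 for *Cyp4p3*, −0.88 for *Cyp4ac1* and −0.79 for *Cyp9c1*.

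Over all arrays, the remaining members passed the test in neither tissue. *Cyp9f2* had 2712, 2057 and 2669 in *nub1* gut, against 1735, 1648 and 1386 in wt gut (log2 fold change 0.63, SE 0.13, adjusted p = 0.00274). No array overlapped, and the fold stayed under 2. The mitochondrial members *Cyp12a5* and *Cyp49a1* stood at 0.82 and 0.90 on the log2 scale in gut, with adjusted p of 0.00425 and 0.000825, likewise under the fold minimum. *Cyp4e2* had 493, 481 and 481 in *nub1* carcass, against 572, 569 and 468 in wt carcass, and 668, 613 and 672 in *nub1* gut, against 859.9, 784 and 742 in wt gut. Its log2 fold changes were −0.14 and −0.28. The cyclophilins matched by the letters of their symbols passed the test in neither tissue between the genotypes: the log2 fold change of *Cyp1* was −0.06 in carcass and 0.04 in gut, and that of *Cyp40* −0.04 and −0.33.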

How the data were processed

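RNA of 12 samples was hybridised to Affymetrix Drosophila Genome 2.0 arrays. The authors deposited MAS5 signal intensities from Expression Console, scaled so that the mean of each array without the outer 2% at each end was 100. Versions of this software: not given in the sources used here. Of 18952 probe sets, 183 controls were left out, and 13647 of the other 18769 had 1 gene, named through Entrez identifiers in RefSeq or as in the platform table. 402 had several genes and 4720 none, and these were not named.

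Signals were taken as log2(signal + 10), and fold changes are on this scale, which understates changes of low genes. One limma (3.58.1, R 4.3.3) model with 4 group means and a trended prior was fitted to the 10199 probe sets that reached 10 on all 3 arrays of a group. A comparison used the probe sets that reached 10 on all arrays of one of its groups, with Benjamini-Hochberg adjustment over all of them, and a member was called at 2-fold or more with an adjusted p below 0.05. Where all arrays of a group were under 10, "at least" folds set them at 10. Errors are SE of the fit. They and the p-values use a spread for each probe set that the 4 groups share and the prior moderates, not the spread of a single group. The number of arrays limits the precision. The steps were tested on simulated data.

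The members and lists were chosen with earlier results of these data known. Genes were named by a rule: members called between genotypes or for the difference, the 10 with the highest mean signal in each tissue, up to 10 with the largest difference each way between wt tissues, the measured genes of the role lists, and *Cyp12d1-d* and *Cyp4p1*, which the study names. Neighbours were added after their values were seen. Other pseudocounts (1 and 32), signal minima (20 or none), normalizations, variance models, a replicate block, the methods' t-test and leaving out arrays were tried. Leaving out arrays with ejaculatory duct or eggshell signal was chosen after seeing the data. The main fit did not pair arrays. Correlations of deviations between equal replicate numbers ran from −0.351 to 0.328, which cannot settle whether gut and carcass came from the same flies. No sequences are printed.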

Additional observations from a re-analysis of the deposited data

Results flagged for a closer look

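For 14 members the effect of genotype differed between the tissues by the limma test of the difference itself (gut minus carcass, log2 scale). It was higher in gut for *Cyp4s3* (3.40), *Cyp12c1* (2.25), *Cyp313a1* (2.09), *Cyp4d20* (1.29), *Cyp6d5* (1.17), *Cyp9b2* (1.16) and *Cyp4d21* (1.04). It was lower in gut for *Cyp6a14* (−2.29), *Cyp4p2* (−2.16), *Cyp4ad1* (−1.83), *Cyp309a2* (−1.74), *Cyp6t1* (−1.44), *Cyp6a9* (−1.34) and *Cyp6a21* (−1.20).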

How the results depend on the processing

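No called member changed direction, in a comparison where it was called, under any alternative. Over called members and settings 3225 values kept the call and 118 lost it. Members that were not called were not followed in this way. In carcass, 4 members were higher in *nub1*, against 9 with a pseudocount of 1, none (0) with a pseudocount of 32 and 9 by the methods' t-test at its looser threshold. In gut, 5 were higher by that t-test after Benjamini-Hochberg adjustment. Without the eggshell arrays (wt gut 2 and 3, *nub1* gut 2), 12 members had a higher effect in gut than in carcass. With a pseudocount of 32, 2 members were lower in *nub1* gut than in *nub1* carcass, and without *nub1* gut arrays 1 and 3 there were 3. Leaving out each array in turn gave 2 to 5 higher and 7 to 10 lower in carcass, 8 to 10 and 10 to 12 in gut, 5 to 11 and 7 to 9 for the difference, 40 to 41 and 3 to 5 for *nub1* tissues and 39 to 39 and 6 to 7 for wt tissues. The lowest carcass count came without wt carcass array 3 (2), the highest difference count without *nub1* gut array 2 (11), and the lowest *nub1* tissue count without *nub1* gut array 3 (3). With the replicate number as a block the counts were 4 and 7 in carcass, 8 and 11 in gut, 6 and 7 for the difference, 41 and 5 for *nub1* tissues and 39 and 6 for wt tissues, and only *Cyp4d21* lost its call for the difference (adjusted p = 0.063). The cause of these changes was not tested. The fits without the eggshell arrays, or without *nub1* gut arrays 1 and 3, left a single array in wt gut or in *nub1* gut. Signals near 10 limit what could be seen of the dim members.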
